A study of Mus musculus with 20 samples.

Results

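The epidermal growth factor (EGF) receptor family and its ligands were followed across age in the mouse corneal epithelium. The set held 10 of the 24552 genes in the table, taken by symbol from a list of the family. It comprised the receptor genes *Egfr*, *Erbb2* and *Erbb3*, the ligand genes *Hbegf*, *Areg*, *Ereg*, *Epgn*, *Btc* and *Tgfa*, and *Errfi1*, which encodes an intracellular inhibitor of the receptors. All 10 were detected in every library and were among the 11288 genes that passed the filter on low expression.

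Epithelium was debrided from the corneas of naïve, wild-type female C57BL/6J mice, each library taking the 2 corneas of a single animal, with 5 libraries at each of 4 ages. The young group was 2 to 3 months old, and the aged groups were 12 to 13, 18 to 19 and 24 to 25 months old. The study asked how the epithelial transcriptome differs with age and how that bears on wound repair, but the sequenced corneas were not wounded. Per the methods, mice came from more than 1 supplier and some aged in the authors' own colony. The labels do not tie a source to a library, and its part in the results was not tested.

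Epithelial cells shed EGF-like ligands from membrane-bound precursors by proteolysis, and the freed ligands bind receptors on the same or neighbouring cells. EGFR and ERBB3 pair with each other and with ERBB2, which has no known ligand of its own, and the active pair drives the Ras and mitogen-activated protein kinase (MAPK) cascade and the phosphatidylinositol 3-kinase pathway. In the cornea, heparin-binding EGF-like growth factor and its relatives released at a wound edge are the best known stimulus of epithelial migration, and early response genes such as *Egr1* and *Jun* are switched on within minutes of receptor activation.

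Libraries held between 6699383 and 10762360 reads on genes, with a median of 8731333.5. Values below are normalized counts, which are reads divided by the size factor of the library, and they come from the 3′ end of transcripts, so levels of different genes were not ranked. The 8 corneal epithelium markers, among them *Krt12*, summed to between 386929 and 495096 normalized counts in every library, and none of the 8 was at 0 throughout. Markers of other tissues were also read. The summed count of 10 stromal keratocyte genes was 1815 to 4850.3 in the young libraries and 371 to 1121 at 24 months. That of 5 tear and skin gland genes was 738 to 10471 in the young libraries and no more than 220.2 at any other age. That of 4 vessel genes was 54.8 to 68.5 in the young libraries, 12.7 to 38.6 at 12 months, 14.6 to 59.1 at 18 months and 21.8 to 59.3 at 24 months. That of 7 conjunctival genes had a median of 36518 in the young libraries and 27012 at 24 months, and that of 5 melanocyte genes was 1049 in 12-month replicate 3 and at most 133 in the other libraries. None of the genes on these lists was at 0 throughout. The 18-month replicate 2 resembled the other libraries least, with a median correlation of 0.904 over genes, and the 18-month values of *Areg*, *Ereg* and *Epgn* are also given without it. Young replicate 1 came next, at 0.910, and held the highest young values of *Egfr*, *Erbb2*, *Erbb3* and *Btc*. The part of these differences in the results below was not tested. In epithelium sampled in bulk, fewer cells of a type and less RNA per cell cannot be told apart.

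None of the 10 genes passed the test at any age. A gene was called where its adjusted *P* did not exceed 0.05 and its change reached 1.2-fold (limma, Benjamini-Hochberg adjustment over 11288 genes). Against the young group, 0 of 10 were called at 12 months, where 0.532% of all tested genes were called, 0 of 10 at 18 months, where 0.673% were, and 0 of 10 at 24 months, where 0.78% were. In the order of these ages, the lowest adjusted *P* among the 10 genes was 0.510, 0.394 and 0.422 (limma). At an unadjusted *P* below 0.05, limma listed 1, 2 and 1 of the 10 genes in these comparisons, where 9.56%, 7.18% and 9.97% of all tested genes lay below that value. The count-based fit of limma (voom) called 0 of 10 in each and listed 0, 2 and 1 at an unadjusted *P* below 0.05. The 3 comparisons share the 5 young libraries and are not independent of each other.

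The other comparisons gave the same count. Limma called 0 of 10 genes for the aged libraries together against the young group, where 1.01% of all tested genes were called, and 0 of 10 for a straight line over age, where 0.718% were. Between aged groups it called 0 of 10 for 24 against 12 months, where the background was 0.195%, and 0 of 10 for 18 against 12 months, where it was 0.00886%. It called 0 of 10 for 24 against 18 months, where the background was 0%. At an unadjusted *P* below 0.05 limma and voom listed equal numbers of the 10 genes in these 5 comparisons, namely 1, 2, 2, 1 and 0, where limma placed 7.89%, 9.98%, 14.7%, 7.43% and 5.31% of all tested genes below that value, and voom called 0 of 10 in each. The median log2 fold change of the 10 genes was 0.11, −0.05 and −0.11 at 12, 18 and 24 months, against −0.01, −0.0011 and 0.0052 over all tested genes. Of the 10 genes, 6, 3 and 3 were higher than in the young group at these ages. In the other 5 comparisons, in the order given above, the medians were −0.06, −0.09, −0.15, −0.10 and −0.07. There 4, 2, 4, 3 and 3 of the 10 genes had positive values. Medians over all tested genes were −0.0068, 0.0051, 0.020, 0.0052 and 0.0086. The comparisons share libraries, and a common direction of the family was not tested.

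**Figure D1:**
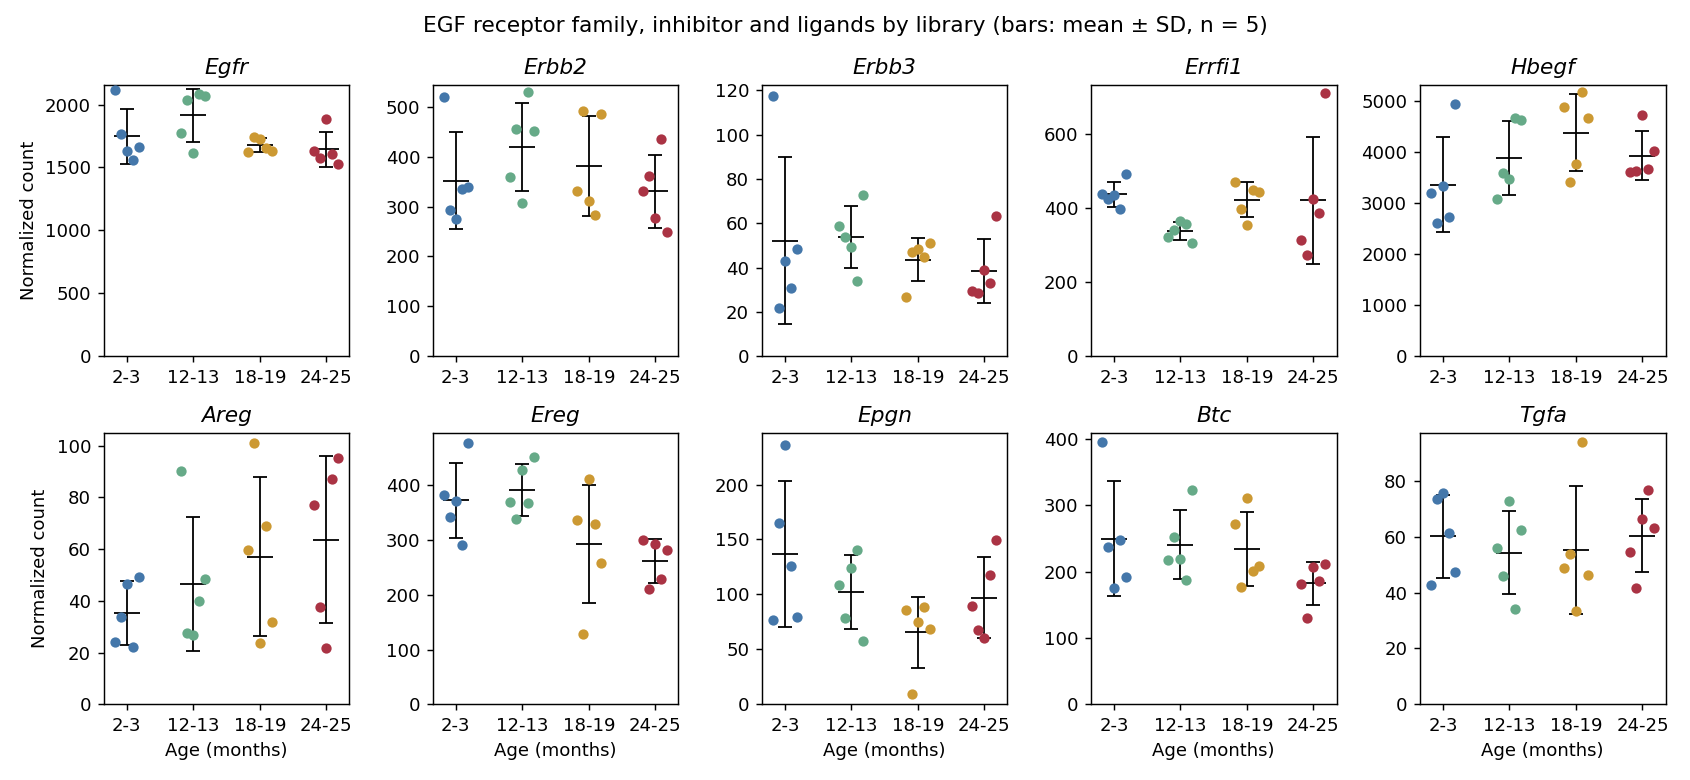
Normalized counts of the 10 genes in each library (points, replicates 1 to 5 from left to right) by age in months, with the mean and SD of each age (bars, n = 5). Each aged group overlaps the young one in every panel except for *Errfi1* at 12 months, where all 5 libraries lie below the 5 young ones, and a single library lies far from its group for *Erbb3* (young, 117 normalized counts) and *Epgn* (18 months, 9.38).

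*Egfr* encodes the receptor shared by all 6 ligands and was the steadiest of the genes. It lies on chromosome 11 (chr11:16752203-16913907, GRCm38.p6, RefSeq). The 250 bases before its annotated start are shown because this promoter sits beside the least variable gene of the family. The capitals mark the letters GGGCGG, a site of the transcription factor SP1, read here on the opposite strand and beginning 9 bases before the start (chr11:16751953-16752202, plus strand).
Egfr: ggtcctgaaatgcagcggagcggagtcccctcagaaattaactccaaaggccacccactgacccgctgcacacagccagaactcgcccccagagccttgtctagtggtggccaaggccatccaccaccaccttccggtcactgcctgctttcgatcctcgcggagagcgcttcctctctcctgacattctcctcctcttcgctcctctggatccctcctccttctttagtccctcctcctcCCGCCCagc

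The normalized count of *Egfr* was 2116, 1764, 1629, 1559 and 1664 in young replicates 1 to 5. It was 1777, 2035, 1613, 2085 and 2066 at 12 months. Of these 5 libraries, 4 lay above the young median of 1664, and none above the highest young library. At 18 months the 5 values were 1621, 1743, 1726, 1656 and 1633, which all fell inside the young range. At 24 months they were 1627, 1577, 1886, 1611 and 1531, and 1 library lay below the lowest young one. Means were 1746 ± 219 in the young group, 1915 ± 210.2 at 12 months, 1676 ± 55.4 at 18 months and 1646 ± 139 at 24 months (SD, n = 5 each).

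The log2 fold change of *Egfr* against the young group at 12, 18 and 24 months was 0.13 ± 0.10, −0.05 ± 0.10 and −0.08 ± 0.10 (SE). The 95% intervals ran from 0.947-fold to 1.27-fold, from 0.833-fold to 1.12-fold and from 0.816-fold to 1.10-fold. The 24-month group against the 12-month group gave a log2 fold change of −0.21 ± 0.10, with an unadjusted *P* of 0.0482 and an adjusted *P* of 0.337 (limma).

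*Erbb2* encodes the partner receptor without a ligand, and *Erbb3* the receptor with little kinase activity of its own that binds neuregulins. *Erbb2* lies on the same chromosome as *Egfr* (chr11:98412484-98437716) and *Erbb3* on chromosome 10 (chr10:128567523-128589635). *Erbb2* averaged 352 ± 97.9 normalized counts in the young group, 420.2 ± 88.05 at 12 months, 381 ± 99.9 at 18 months and 331 ± 73.1 at 24 months (SD, n = 5). Its range over the 20 libraries was 249 to 530.1, and the young libraries alone covered 275 to 521. Its log2 fold change against the young group was 0.27 ± 0.20, 0.11 ± 0.20 and −0.08 ± 0.20 at 12, 18 and 24 months (SE), with adjusted *P* of 0.742, 0.978 and 0.936 (limma).

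*Erbb3* was read at a low level, from 22 to 107 reads a library. Its means were 52.2 ± 37.8, 53.8 ± 14.1, 43.6 ± 9.69 and 38.5 ± 14.3 normalized counts from the young to the oldest group (SD, n = 5). Young replicate 1 held 117 normalized counts, and the other 4 young libraries held 21.7 to 48.4. Without that library the 24-month log2 fold change of *Erbb3* moved from −0.25 to 0.10, so its sign rests on 1 young animal. Its 95% interval at 24 months ran from 0.490-fold to 1.44-fold, and a change within those bounds was not resolved with 5 libraries an age.

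*Errfi1* encodes a feedback inhibitor, also called MIG6, that is induced by EGFR signalling and binds the kinase domain of the receptors (chr4:150853796-150868889). It was the single gene of the 10 whose 12-month libraries did not overlap the young ones. The young libraries held 437, 424, 436, 397 and 491 normalized counts. The 12-month libraries held 322, 341, 365, 358 and 306. All 5 lay below all 5 young libraries, a pattern without overlap that 1.98% of all tested genes showed at this age. The exact permutation test gave an unadjusted *P* of 0.00794 (two-sided), the smallest it can give with 5 libraries against 5. At 18 and 24 months 0 of the 10 genes were without overlap, where 2.05% and 2.81% of all tested genes were.

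The log2 fold change of *Errfi1* at 12 months was −0.37 ± 0.18 (SE), with an unadjusted *P* of 0.0462 and an adjusted *P* of 0.510 (limma), so it was not called. At 18 months the libraries held 471, 396, 354, 448 and 445 normalized counts, and 3 of the 5 were above the young median. At 24 months they held 315, 272, 424, 386 and 709.6, so the lowest and the highest *Errfi1* values of the series were found at the same age. Log2 fold changes at these ages were −0.05 ± 0.18 and −0.13 ± 0.18 (SE), with adjusted *P* of 0.988 and 0.858 (limma).

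**Figure D2:**
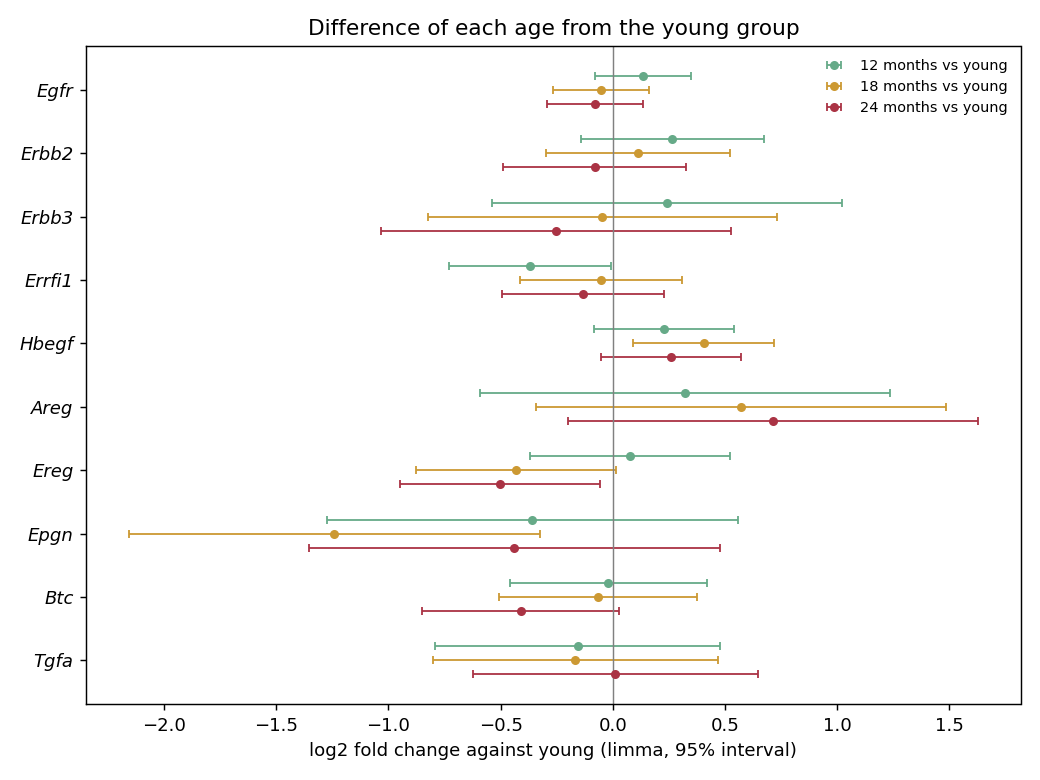
Log2 fold change of each gene against the young group at 12, 18 and 24 months (points) with 95% intervals from the limma fit of all 20 libraries (bars). The intervals of *Egfr* are the narrowest, from −0.29 to 0.35 over the 3 ages, and those of *Areg*, *Epgn* and *Erbb3* are the widest.

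*Hbegf* encodes heparin-binding EGF-like growth factor, a ligand of EGFR that keratinocytes and corneal epithelial cells release on injury. The young libraries held 3198, 2598, 3332, 2721 and 4928 normalized counts of *Hbegf*. At 12 months the values were 3073, 3580.4, 3461, 4669 and 4628. At 18 months they were 4879.7, 3403, 3760.35, 5172 and 4669.6, and at 24 months 3600.1, 3633, 4728, 3664 and 4007. All 5 libraries at 18 months and all 5 at 24 months lay above the young median of 3198, as did 4 of the 5 at 12 months. Young replicate 5 lay above 14 of the 15 aged libraries, so every aged group overlapped the young one.

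Group means of *Hbegf* were 3355 ± 932, 3882 ± 724, 4377 ± 758 and 3926 ± 477 normalized counts from the young to the oldest group (SD, n = 5). Against the young group, log2 fold changes at the successive ages were 0.23 ± 0.15, 0.40 ± 0.15 and 0.26 ± 0.15 (SE). The 18-month difference had an unadjusted *P* of 0.0131 and an adjusted *P* of 0.448 (limma), and the exact permutation test gave 0.0794 (two-sided, unadjusted). For the 15 aged libraries together the log2 fold change was 0.30 ± 0.12 (SE, adjusted *P* = 0.465, limma). Without young replicate 5 the differences were 0.55 at 18 months and 0.45 for the aged libraries together, with adjusted *P* of 0.0848 and 0.0873 (limma), the lowest adjusted values of any of the 10 genes under any setting that was tried. Without young replicate 2 they were 0.32 and 0.21.

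The genes for the ligands epigen, epiregulin, amphiregulin and betacellulin lie next to each other on chromosome 5, in the order *Epgn* (chr5:91027517-91035212), *Ereg* (chr5:91074617-91093649), *Areg* (chr5:91139599-91148432) and *Btc* (chr5:91357261-91402994). The 4 genes span 375.5 kb, with 39.4 kb between *Epgn* and *Ereg*, 45.9 kb between *Ereg* and *Areg* and 208.8 kb between *Areg* and *Btc*. No other protein-coding gene is annotated between them. The 250 bases before the annotated starts of *Areg* and *Epgn* are shown because these genes of the cluster had the 2 largest spreads between libraries of the same age and log2 fold changes of opposite sign at every age. Capitals mark the TATA box letters TATAAA in both, and in *Areg* also the SP1 letters GGGCGG and TGACGTCA, the cyclic AMP response element (CRE). In *Areg* (chr5:91139349-91139598, plus strand) the 3 matches begin 31, 52 and 61 bases before the start, and in *Epgn* (chr5:91027267-91027516, plus strand) the match begins 86 bases before it.
Areg: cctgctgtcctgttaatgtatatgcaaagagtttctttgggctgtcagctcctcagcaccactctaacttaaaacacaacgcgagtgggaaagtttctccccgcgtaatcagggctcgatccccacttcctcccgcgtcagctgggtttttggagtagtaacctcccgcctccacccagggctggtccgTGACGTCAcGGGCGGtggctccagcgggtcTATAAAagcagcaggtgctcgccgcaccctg
Epgn: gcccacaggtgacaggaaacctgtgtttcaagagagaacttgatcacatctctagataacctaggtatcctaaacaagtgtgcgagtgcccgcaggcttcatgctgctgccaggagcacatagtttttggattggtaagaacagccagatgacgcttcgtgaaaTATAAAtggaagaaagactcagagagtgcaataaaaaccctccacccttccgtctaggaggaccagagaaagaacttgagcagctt

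The promoters of 7 of the 10 genes were matched in RefSeq (GRCm38.p6), as 8 windows of 250 bases because *Errfi1* has 2. No promoter was matched for *Hbegf*, *Ereg* or *Erbb3*, so these genes were not searched for any of the letters below. Of these 8 windows, 3 held TATAAA, 4 held GGGCGG and 2 held TGACGTCA on either strand. Among 32851 promoters the shares with these letters were 12.4%, 32.7% and 1.55%. None of the 8 held TGANTCA, the letters of the AP-1 site, or GCGNGGGCG, those of the EGR1 site, which 6.75% and 4.70% of all promoters hold and the latter of which can overlap GGGCGG. Guanine and cytosine made up 57.2% of the *Areg* window, 46.8% of the *Epgn* window and 60.8% of the *Egfr* window, against a median of 52.4%. A match describes letters in the window and not a bound site.

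*Areg* encodes amphiregulin, a ligand of EGFR with lower affinity than EGF. The young libraries held 24.1, 33.7, 46.6, 22.3 and 49.3 normalized counts. At 12 months the values were 90.1, 27.6, 26.8, 40.1 and 48.4, and at 18 months 59.8, 100.9, 23.8, 69.0 and 31.9. At 24 months they were 77.0, 37.4, 21.8, 87.0 and 95.1. At 12, 18 and 24 months 1, 3 and 3 libraries lay above every young library, whereas the lowest value at 24 months lay below every young one. Log2 fold changes of *Areg* were 0.32 ± 0.45, 0.57 ± 0.45 and 0.71 ± 0.45 (SE), and the straight line over age gave 0.73 ± 0.41 over 22 months (SE, adjusted *P* = 0.568, limma). Without 18-month replicate 2 the 18-month value was 0.33, and without 12-month replicate 1 the 12-month value was 0.049. The 24-month interval ran from 0.871-fold to 3.09-fold.

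*Ereg* encodes epiregulin, a ligand of EGFR and ERBB4. The young libraries held 383, 342, 371, 291 and 478 normalized counts of *Ereg*, and the 12-month libraries 369, 338, 428, 368 and 452. At 18 months the values were 337, 128, 412, 329 and 257. At 24 months they were 299, 209.8, 292, 228 and 281. All 5 of the 24-month libraries lay below the young median of 371, and 3 of the 5 lay below every young library. Means were 373 ± 68.5, 391 ± 47.3, 293 ± 107 and 262 ± 40.5 (SD, n = 5).

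The log2 fold change of *Ereg* was 0.08 ± 0.22, −0.43 ± 0.22 and −0.50 ± 0.22 at 12, 18 and 24 months against the young group (SE), and the 18-month value was −0.16 without 18-month replicate 2. The 24-month difference had an unadjusted *P* of 0.0287 and an adjusted *P* of 0.422 (limma), and 0.0238 by the exact permutation test (two-sided, unadjusted). Against the 12-month group it was −0.58 ± 0.22, with an unadjusted *P* of 0.0126 and an adjusted *P* of 0.221 (limma). The straight line over age gave −0.58 ± 0.21 over 22 months (SE, unadjusted *P* = 0.0117, adjusted *P* = 0.311, limma), and between −0.68 and −0.49 with each library left out in turn. At 18 months the value against the 12-month group was −0.51, and −0.24 without 18-month replicate 2.

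*Epgn* encodes epigen, a low-affinity ligand of EGFR. The young libraries held 76.7, 165, 236, 126 and 79.7 normalized counts. At 12 months the values were 108, 78.9, 124, 140.3 and 57.3. At 18 months they were 85.4, 9.38, 74.6, 88.7 and 68.7, and at 24 months 89.7, 67.5, 60.5, 117 and 149.6. All 5 of the 18-month libraries lay below the young median of 126, and 3 of them below every young library. The value of 9.38 in 18-month replicate 2 came from 8 reads.

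*Epgn* had log2 fold changes of −0.36 ± 0.45, −1.24 ± 0.45 and −0.44 ± 0.45 at 12, 18 and 24 months (SE). At 18 months the unadjusted *P* was 0.0097 and the adjusted *P* 0.394 (limma), with 0.0635 by the exact permutation test (two-sided, unadjusted). Without 18-month replicate 2 the log2 fold change was −0.65 and the unadjusted *P* 0.0591, so the size of this difference rests on 1 library.

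*Btc* encodes betacellulin, a ligand of EGFR and ERBB4, and *Tgfa* transforming growth factor alpha, a high-affinity ligand of EGFR (chr6:86195038-86275744). *Btc* averaged 249.8 ± 87.0, 240.2 ± 52.0, 234 ± 55.8 and 183 ± 32.4 normalized counts from the young to the oldest group (SD, n = 5). All 5 of the 24-month libraries lay below the young median of 238, within 129 to 211. The log2 fold change of *Btc* at 24 months was −0.41 ± 0.21 (SE), with an adjusted *P* of 0.543 (limma) and an interval of 0.555-fold to 1.02-fold, and it was −0.23 without young replicate 1. *Tgfa* averaged 60.2 ± 14.9, 54.3 ± 14.9, 55.3 ± 22.96 and 60.4 ± 13.2 (SD, n = 5), with log2 fold changes of −0.16, −0.17 and 0.01 and intervals that reached at most 1.57-fold upward and 0.573-fold downward.

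The genes differed in how far animals of 1 age varied. The within-age SD of *Egfr* was 0.13 on the log2 scale, below that of all but 1.72% of the tested genes. *Hbegf* and *Errfi1* had values of 0.27 and 0.29, at percentiles 28.0 and 31.0. *Erbb2*, *Btc*, *Ereg* and *Tgfa* lay between 0.34 and 0.42, in the middle of all genes. *Erbb3*, *Areg* and *Epgn* had 0.57, 0.75 and 0.83, at percentiles 71.0, 81.2 and 84.6. Spread fell with the number of reads over all genes, as the plot of SD by level shows, and the 3 widest genes are among the 4 with the lowest counts of the set.

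**Figure D3:**
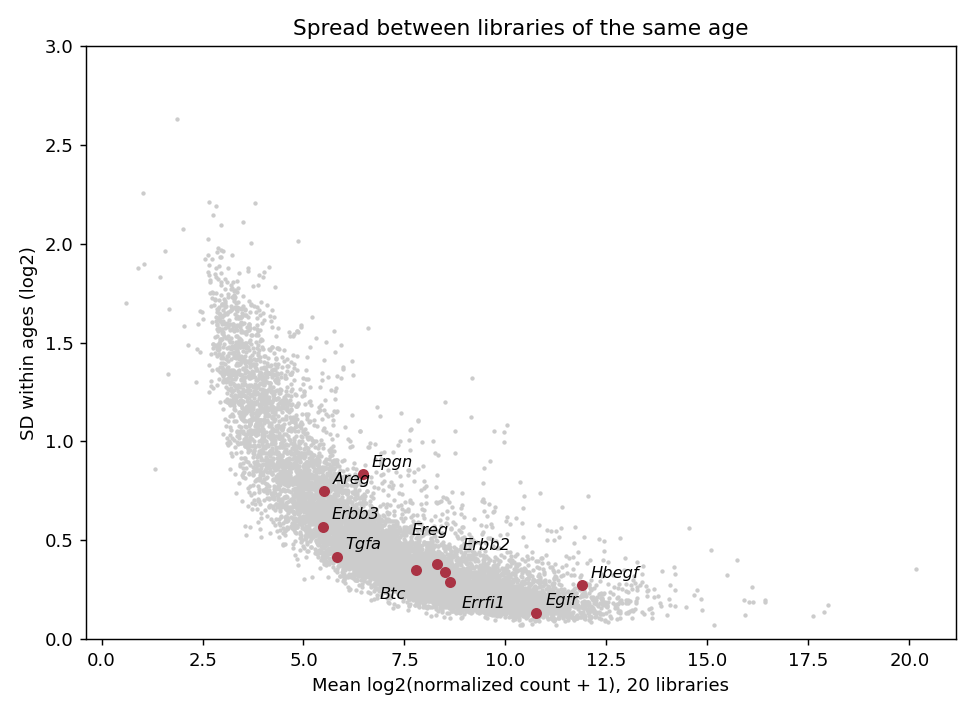
Within-age SD on the log2 scale against the mean log2(normalized count + 1) over 20 libraries, for all 11288 tested genes (grey) and the 10 genes of the family (red, labelled). *Egfr* lies at the lower edge with 0.13, and *Epgn* (0.83) and *Areg* (0.75) lie highest of the 10.

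Counting error was smaller than the spread between animals for most of these genes. In the young group the coefficient of variation of *Egfr* was 12.6%, of which reads alone would give 2.34%. For *Hbegf* the values were 27.8% and 1.69%, and for *Epgn* 48.5% and 8.23%. For *Areg* they were 35.4% and 16.3%. Reads without molecular identifiers are not independent molecules, so the second value of each pair covers counting error only.

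Deviations of the 10 genes from their age means, taken over the 20 libraries, did not follow one another as a group. Over the 45 pairs the Pearson correlation ranged from −0.51 to 0.56 with a median of 0.019, as a description of libraries that share depth and tissue. The pairs above 0.5 were 3, namely *Ereg* with *Epgn* (0.56), *Egfr* with *Erbb2* (0.52) and *Ereg* with *Hbegf* (0.51). The neighbours *Ereg* and *Epgn* gave −0.18 without 18-month replicate 2, in which both were at their lowest. Without that library *Egfr* with *Erbb2* gave 0.52 and *Ereg* with *Hbegf* 0.41, while *Egfr* with *Btc* went from 0.47 to 0.53 and *Erbb3* with *Btc* from 0.49 to 0.53. *Erbb2* with *Epgn* was the lowest pair, at −0.51, or −0.42 without it.

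The genes most like *Hbegf* over the 20 libraries on the log2 scale were *Egr1* (0.85), *Pim1* (0.83), *Jun* (0.83), *Tbc1d30* (0.82) and *BC031181* (0.72), by Pearson correlation. In deviations from age means, the closest were *Ivns1abp* (0.86), *Egr1* (0.84, Spearman 0.80), *Tbc1d30* (0.81), *Pim1* (0.81) and *Retreg3* (0.79), and *Egr1* gave 0.73 without the 2 libraries farthest from its median deviation. *Egr1* and *Jun* encode transcription factors of the early response, and *Pim1* a kinase. Of the 11 tested early response genes, 6 correlated with *Hbegf* above 0.5 in deviations from age means, 5 with *Epgn*, 3 with *Ereg*, 1 each with *Egfr*, *Erbb3* and *Errfi1*, and none with *Erbb2*, *Areg*, *Tgfa* or *Btc*. Of all tested genes, 2.84% lay above 0.5 with *Hbegf*, 11.6% with *Epgn* and 4.52% with *Ereg*. The shares were 9.05% with *Egfr*, 3.31% with *Erbb3*, 1.75% with *Errfi1*, and 3.03% to 5.69% with *Erbb2*, *Areg*, *Tgfa* and *Btc*. Early response genes below −0.5 were *Ier2* (−0.54) and *Phlda1* (−0.52) with *Erbb2*, and *Dusp1* (−0.504) with *Egfr*. Without 18-month replicate 2 the counts of early response genes were 6 for *Hbegf*, 2 for *Epgn* and 2 for *Ereg*, where 3.76%, 14.5% and 2.06% of all tested genes lay above 0.5. Without that library 2 early response genes lay above 0.5 with *Areg* and 1 with *Tgfa*, where 7.44% and 3.92% of all tested genes did.

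*Egr1* held 212, 146, 662, 239 and 1578 normalized counts in young replicates 1 to 5, and the highest and lowest of these are the libraries with the highest and lowest *Hbegf* of the group. Within ages the correlation of *Hbegf* with *Egr1* was 0.92 in the young group, 0.99 at 12 months and 0.97 at 18 months, but −0.17 at 24 months, over 5 libraries each. At 24 months *Egr1* had a range of 572 to 1115 normalized counts, against 674 to 1480 at 12 months and 475 to 1831 at 18 months. The part of these ranges in the correlations was not tested. *Egr1* itself had a log2 fold change of 1.19 ± 0.35 for the aged libraries together (SE, adjusted *P* = 0.121, limma).

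**Figure D4:**
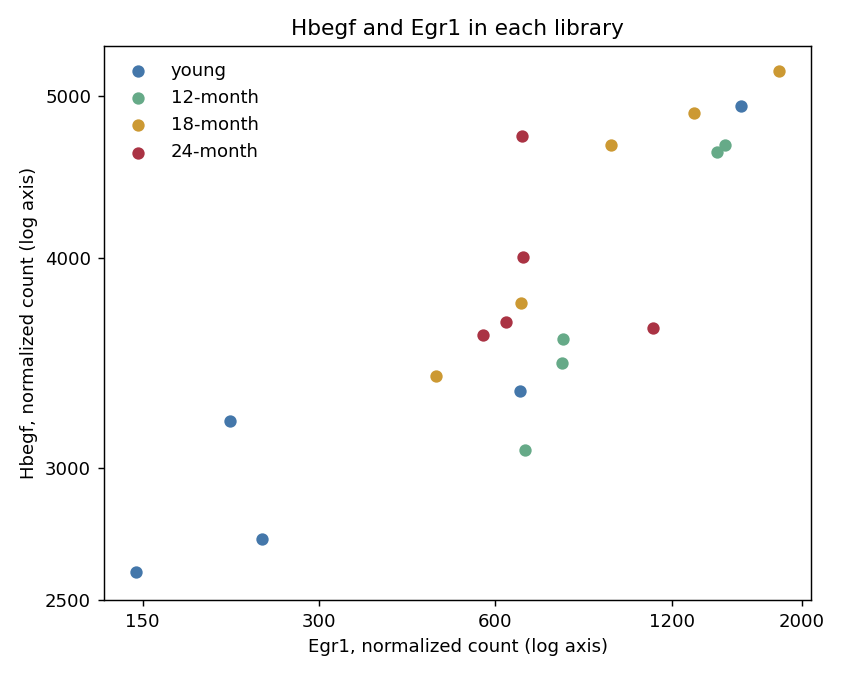
Normalized counts of *Hbegf* against *Egr1* in the 20 libraries (points, coloured by age; both axes logarithmic). Young replicates 2 and 5 lie at the lower left (146 of *Egr1*, 2598 of *Hbegf*) and near the upper right (1578, 4928), and the 24-month libraries do not follow the diagonal of the other ages.

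For *Ereg* and *Epgn*, the genes most alike rested in part on the same library. The genes closest to *Ereg* on the log2 scale were *Phlpp2*, *Clec3b*, *Lcor*, *Alkbh4* and *Tcaim*, with correlations of 0.83 to 0.77, or 0.50 to 0.65 without 18-month replicate 2. In deviations from age means they were *Mettl8*, *Phlpp2*, *Dnajc19*, *1190002N15Rik* and *5930412G12Rik*, with 0.85 to 0.81, or 0.49 to 0.62 without it. The genes closest to *Epgn* on the log2 scale were *Tsen15*, *Abcb8*, *Zfp367*, *Fignl1* and *Vegfd*, with 0.86 to 0.83, or 0.52 to 0.67 without it. In deviations they were *Fdx1*, *Tc2n*, *Fam114a2*, *Zfp367* and *0610010K14Rik*, with 0.93 to 0.89, or 0.69 to 0.93 without it, and *Fdx1* gave 0.90 without it.

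Among 78 other genes of the pathway, 63 were tested and 1 was called in any of the 8 comparisons. Single comparisons called 0% to 1.01% of all tested genes. The share of all tested genes called in any of the 8 was not computed, so the count of 1 has no like background. The called gene was *Junb*, a subunit of the AP-1 transcription factor. It rose along the straight line over age by 0.56 ± 0.14 on the log2 scale over 22 months (SE, adjusted *P* = 0.0447, limma). That comparison called 0.718% of all tested genes. The young libraries held 1346, 1680.2, 2497, 1949.65 and 2119 normalized counts of *Junb*, and the 24-month libraries 2481, 2761, 3006, 2783 and 2849.9. Of the 5 oldest libraries, 4 lay above every young one. The call was lost in 15 of 20 fits with 1 library left out, with an adjusted *P* as high as 0.193 without young replicate 1 (limma), and the log2 value stayed between 0.45 and 0.66.

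Of the remaining members of the family, *Egf*, *Nrg1* and *Nrg2* were tested and 0 of 3 were called against the young group at any age. *Egf*, the name-giving ligand, averaged 23.1 ± 11.9 normalized counts among the young libraries and 26.02 ± 7.26 among the oldest (SD, n = 5). *Nrg1*, a ligand of ERBB3, averaged 46.5 ± 38.0 in the young group and 86.2 ± 26.7 at 18 months, with a log2 fold change of 1.52 ± 0.62 (SE, adjusted *P* = 0.554, limma). Young *Nrg1* values ran from 2.19 normalized counts, from 2 reads, to 93.2, and overlapped the 18-month values of 59.8 to 120.9. *Erbb4*, the remaining receptor, had 0 reads in 17 of 20 libraries and at most 8 in the others. *Nrg3* had 0 reads in all 20 libraries, which allows up to 3 reads in each, and *Nrg4* had 0 in 15.

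The ligand-shedding genes were 7, of which 6 were tested and 0 called. *Adam17* encodes the main protease that frees amphiregulin, epiregulin and TGF-alpha, and it averaged 674 ± 116 normalized counts among the young libraries and 673 ± 66.8 among the oldest (SD, n = 5). *Adam10*, whose product frees betacellulin and EGF, averaged 601 ± 115 and 654 ± 94.99. *Rhbdl2*, which encodes a rhomboid protease, had a log2 fold change of −0.54 ± 0.41 at 18 months (SE, adjusted *P* = 0.885, limma). At 24 months all 6 had positive log2 fold changes, with a median of 0.09 against 0.0052 over all tested genes. At 12 and at 18 months 3 of the 6 were positive, with medians of −0.015 and 0.017. The share of positive values over all tested genes was not computed.

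Genes that restrain the receptors were 13, of which 12 were tested and 0 called, with a median of 0.02 at 24 months. *Lrig1*, which encodes a membrane protein that promotes receptor degradation, averaged 387 ± 176 among the young libraries and 531 ± 246 among the oldest (SD, n = 5). *Ptpn1*, which encodes a tyrosine phosphatase that acts on EGFR, had a log2 fold change of 0.20 ± 0.10 at 12 months (SE, adjusted *P* = 0.557, limma). Of 10 feedback genes of the cascade, 7 were tested and 0 called, with a median of −0.15 at 24 months. *Spry2*, a feedback inhibitor of Ras signalling, had a log2 fold change of 0.43 ± 0.14 for the aged libraries together (SE, adjusted *P* = 0.169, limma). *Spred2*, another inhibitor of the cascade, gave −1.04 ± 0.59 along the straight line over 22 months (SE, adjusted *P* = 0.569, limma). *Spred2* was read at a low level, from 12 to 35 reads in the young libraries and 1 to 39 at 24 months.

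Adaptors and kinases of the cascade were 26, of which 24 were tested and 0 called, with a median of 0.08 at 24 months. *Akt2*, a kinase downstream of phosphatidylinositol 3-kinase, had a log2 fold change of 0.57 ± 0.18 at 24 months (SE, adjusted *P* = 0.188, limma). *Stat3*, a transcription factor activated by the receptors, gave 0.32 ± 0.13 along the straight line (SE, adjusted *P* = 0.361, limma). The 16 early response genes had 11 tested members, of which 9 had positive values at 24 months, with a median of 0.36 and 0 called. At 12 and 18 months 6 and 8 of the 11 were positive, with medians of 0.02 and 0.18. Over all tested genes the medians were −0.01, −0.0011 and 0.0052 at 12, 18 and 24 months. The 11 listed clock names stood for 10 genes, as *Bmal1* is another name of *Arntl*. All 10 were tested and 0 called, with a median of 0.34 at 12 months. *Tef*, which encodes an output factor of the clock, had a log2 fold change of 0.81 ± 0.19 at 12 months, just outside the threshold (SE, adjusted *P* = 0.0516, limma). *Per2*, a core clock gene, had 0.91 ± 0.28 at the same age (SE, adjusted *P* = 0.189, limma). Hours of collection were not given in the labels, and their part in these values was not tested.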

How the data were processed

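Corneal epithelium of 20 mice was sequenced from oligo-dT primed 3′ libraries (75-base single reads). Per the submitters' notes and methods, cutadapt trimmed the reads, STAR placed them on GRCm38, HTSeq counted them by gene, and counts were normalized by the relative log expression of DESeq2, with versions not given in the sources used here. The deposited values are log2(count divided by size factor, plus 1) as the authors made them, and 100% of them returned whole reads within 0.1 read. The deposited fold changes and p-values of the authors' own comparisons were not used.

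Groups came from the labelled ages. The 10 genes, the pathway lists and the marker lists were chosen with earlier results of these data known. The text names all 10 genes, the called genes of each pathway list or else the 2 with the smallest *P*, and the 5 genes most like each of the 3 of the 10 with the smallest *P* over the 4 ages. *Adam17*, *Nrg2* and genes below the filter were named after their values were seen. Limma 3.58.1 (R 4.3.3, data.table version 1.17.8; lmFit and eBayes with trend) was fitted to 11288 genes whose normalized counts averaged 10 or more, with the 4 ages in 1 fit, the aged libraries together in a fit of 2 groups, and age as a number in another fit. A fold change is on the log2(normalized count + 1) scale and understates that of low genes. Exact tests took all splits of 5 against 5 libraries. Their p-values are printed unadjusted, although an adjustment over the 10 genes had been planned. Python 3.11.15, numpy 2.4.6, pandas 2.3.3, scipy 1.17.1 and matplotlib 3.10.9 were used. The fits were tested on simulated data. Promoters and positions came from RefSeq.

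Alternatives were quantile normalization, filters at 0 and 50, pseudocounts of 0.1 and 10, and the replicate number as a block. Others were fits restricted to the libraries being compared, voom on the recovered reads, fold thresholds of 1 and 1.5, and each library left out. The restricted setting took the aged libraries together as a contrast within the fit of 4 ages, and it had no straight line over age. Fold thresholds were applied to the main fit, whose lowest adjusted *P* among the 10 genes was 0.221 (limma), so they could not add a call. Replicate numbers did not pair animals. Deviations of same-numbered libraries of different ages correlated between −0.30 and 0.16 over 30 pairs (median 0.0077).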

Additional observations from a re-analysis of the deposited data

Results flagged for a closer look

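In 5 of the 40 groups of 5 libraries (10 genes at 4 ages), 1 library lay far from the other 4, by a gap over 0.710 of the range of its group. Chance gives about 1 in 20 such groups where groups are independent and values are normally distributed. The 40 groups come from the same 20 libraries and hold untransformed counts, so their number cannot be judged against that rate. *Egfr* held 1886 normalized counts in 24-month replicate 3, above the other 4 at that age. *Erbb2* held 521 and *Erbb3* 117 in young replicate 1, each above the other 4 young libraries. *Erbb3* held 26.8 in 18-month replicate 1, below the rest of its group. *Epgn* held 9.38 in 18-month replicate 2, the library that also held the lowest *Ereg* value of the series, 128.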

How the results depend on the processing

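The count of called genes stayed 0 in all 239 recalculations over 30 other settings, 20 of which left out 1 library, with a lowest adjusted *P* of 0.0848 (limma). With the filter at 50, *Erbb3* was not tested, because its mean of 47.0 normalized counts lay below the filter. With the replicate block the count was 0 of 10 in each comparison, and 57, 72 and 85 of all tested genes were called at 12, 18 and 24 months against 60, 76 and 88 without it. For 24 against 12 months, 22 genes were called, and 11 with the replicate block or with only the groups compared, 0 without a filter, 35 with a filter at 50, and 0 to 84 with 1 library left out. At 12 months 39 were called with only the groups compared, 38 by voom, 38 without young replicate 5, 39 without young replicate 3 and 96 without young replicate 1, against 60. Against 88 at 24 months, 54 were called without 24-month replicate 3 and 57 without 24-month replicate 4. For 18 against 12 months the count of 1 became 0 to 3. Of the 30 differences of single genes from the young group, 19 kept their sign in every setting and 0 passed the threshold in any. *Erbb3* at 18 months was 0.076 by voom, and *Tgfa* at 24 months −0.019 with quantile normalization and −0.027 by voom. With 1 library left out, the differences that crossed 0 ranged at 12 months from −0.0054 to 0.59 for *Erbb3*, −0.0058 to 0.17 for *Ereg* and −0.13 to 0.16 for *Btc*. At 18 months they ranged from −0.090 to 0.020 for *Egfr*, −0.29 to 0.30 for *Erbb3*, −0.18 to 0.11 for *Btc* and −0.093 to 0.0099 for *Errfi1*. At 24 months they ranged from −0.19 to 0.069 for *Erbb2*, −0.50 to 0.10 for *Erbb3*, −0.10 to 0.14 for *Tgfa* and −0.34 to 0.0043 for *Errfi1*. Leaving out young replicate 1 changed the sign for *Egfr* at 18 months, *Erbb2* at 24 months and *Erbb3* at 18 and 24 months. It also changed the sign for *Btc* at 12 and 18 months and *Tgfa* at 24 months. The *Junb* call over age was kept in 10 of 27 settings. *Erbb3*, *Areg* and *Tgfa* were each read at no more than 107 reads in a library, and *Epgn* at 8 reads in 18-month replicate 2. In the young group the coefficients of variation of *Erbb3*, *Areg* and *Tgfa* were 72.5%, 35.4% and 24.8%. Reads alone would give 13.9%, 16.3% and 12.5%. The part of depth in these results was not tested.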
